A study of Mus musculus with 15 samples.

Results

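The sine oculis homeobox genes (Six2, Six4 and Six5 among them), the eyes absent (Eya) genes and the dachshund (Dach) genes form a small network of transcription regulators in embryonic muscle. The 8 members studied were Six2, Six4, Six5, Eya1, Eya2, Eya3, Eya4 and Dach1, and their acetylated regions were taken from the peak list of 1 H3K27ac CUT&RUN library, made from a mouse fusion-positive rhabdomyosarcoma (FP-RMS). Peaks that touched the RefSeq span of a member, or 50 kb either side, were counted as its peaks. A peak within 2 kb of a start site of that member was a promoter peak, any other peak in the span was a gene body peak, and the rest were flank peaks. This gave 102 of the 122375 peaks of the list, with 17 promoter, 50 gene body and 35 flank peaks.

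The series held 15 libraries from 2 mouse models of FP-RMS, of which MCP gave 6 H3K27ac and 3 IgG libraries and TCP gave 3 of each. Both models carried Cdkn2a(Flox/Flox), with Pax(3P3F/P3F) as the source of the fusion protein PAX3-FOXO1 (P3F) and R26-tdTom as the reporter, and differed in the Cre driver, which was Myf6-Cre (active in myogenic cells) in MCP and Tek-Cre (active in endothelial and blood cells) in TCP. Ages were not given in the sources used here. Only the list matched by library number to MCP H3K27ac replicate 5, from sorted live tumor cells, was used. No model was therefore compared with another, there are no replicates and no p-value was computed. Acetylation of histone H3 at this lysine marks promoters and enhancers in use, and expression was not measured here.

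SIX2, SIX4 and SIX5 are homeodomain transcription factors of a family that binds a site called MEF3 in muscle genes such as Myog. EYA proteins do not bind DNA themselves. They are phosphatases that the homeobox proteins bring to DNA as co-activators, while DACH proteins, relatives of the SKI proto-oncoprotein, act as co-repressors. In the somite the network acts with Pax3 upstream of the myogenic factors Myf5 and Myod1.

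The sequence at the strongest promoter or gene body peak is shown first for 6 members, because the motif counts below were made in such windows. Each is the summit base with 100 bp either side in GRCm38.p6 (mm10), written 5′ to 3′ on the plus strand. Capitals mark matches to the searched motifs, which are given with their counts below, except the loose E-box CANNTG. For Eya2 there are 3 windows, from the strongest gene body peak, the strongest promoter peak and an intron 9 peak that was chosen after its motif matches were seen.
Six2 intron 1 summit, chr17:85685771-85685971: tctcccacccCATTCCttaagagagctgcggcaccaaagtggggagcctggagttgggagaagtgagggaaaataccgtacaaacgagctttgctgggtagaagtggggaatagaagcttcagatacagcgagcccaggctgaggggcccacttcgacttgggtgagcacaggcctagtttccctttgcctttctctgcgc
Six4 exon 1 summit, chr12:73112291-73112491: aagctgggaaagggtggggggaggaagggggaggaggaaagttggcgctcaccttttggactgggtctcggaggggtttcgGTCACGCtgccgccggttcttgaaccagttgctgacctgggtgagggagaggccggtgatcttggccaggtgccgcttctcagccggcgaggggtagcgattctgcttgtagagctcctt
Six5 intron 1 summit, chr7:19095366-19095566: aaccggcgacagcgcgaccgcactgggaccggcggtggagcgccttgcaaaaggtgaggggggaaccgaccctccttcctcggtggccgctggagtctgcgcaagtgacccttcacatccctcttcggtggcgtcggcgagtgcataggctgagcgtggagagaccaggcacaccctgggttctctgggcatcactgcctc
Eya2 intron 10 summit, chr2:165758959-165759159: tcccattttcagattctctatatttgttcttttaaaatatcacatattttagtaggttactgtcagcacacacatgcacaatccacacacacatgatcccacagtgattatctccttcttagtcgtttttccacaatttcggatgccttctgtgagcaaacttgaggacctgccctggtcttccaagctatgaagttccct
Eya2 promoter summit, chr2:165655656-165655856: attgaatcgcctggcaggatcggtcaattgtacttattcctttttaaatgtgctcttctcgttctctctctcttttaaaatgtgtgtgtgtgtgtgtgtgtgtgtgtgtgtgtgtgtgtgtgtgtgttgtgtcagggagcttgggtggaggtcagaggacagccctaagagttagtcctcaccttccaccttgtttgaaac
Eya2 intron 9 summit, chr2:165751029-165751229: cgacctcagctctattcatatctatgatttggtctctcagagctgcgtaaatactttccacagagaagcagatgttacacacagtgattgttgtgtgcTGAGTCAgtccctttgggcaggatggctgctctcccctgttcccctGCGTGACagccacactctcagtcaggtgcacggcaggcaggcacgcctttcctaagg
Eya3 intron 1 summit, chr4:132653526-132653726: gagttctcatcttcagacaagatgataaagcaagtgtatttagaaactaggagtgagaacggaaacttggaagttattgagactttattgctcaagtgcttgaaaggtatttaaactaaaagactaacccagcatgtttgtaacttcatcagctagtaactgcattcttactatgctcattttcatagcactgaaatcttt
Eya4 intron 7 summit, chr10:23157297-23157497: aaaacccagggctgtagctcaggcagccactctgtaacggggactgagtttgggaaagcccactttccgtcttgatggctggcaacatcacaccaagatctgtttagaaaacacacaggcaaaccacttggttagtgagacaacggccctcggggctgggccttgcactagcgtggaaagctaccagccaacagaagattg

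Promoters of 3 members, 300 bp each, are shown from the RefSeq promoter table (GRCm38.p6), which held 6 of the 8 members. Each runs on the minus strand, the strand of the gene, and capitals mark CpG dinucleotides. Six2 had promoter peaks, whereas Eya4 and Dach1 were the members without one.
Six2 promoter, chr17:85688205-85688504, minus strand, 37 CpGs: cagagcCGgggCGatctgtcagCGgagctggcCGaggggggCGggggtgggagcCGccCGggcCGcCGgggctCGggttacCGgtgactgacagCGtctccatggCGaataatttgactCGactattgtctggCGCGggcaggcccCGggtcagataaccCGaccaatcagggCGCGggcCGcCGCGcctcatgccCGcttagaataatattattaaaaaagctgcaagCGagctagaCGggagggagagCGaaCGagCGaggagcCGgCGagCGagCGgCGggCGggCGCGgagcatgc
Eya4 promoter, chr10:23349894-23350193, minus strand, 36 CpGs: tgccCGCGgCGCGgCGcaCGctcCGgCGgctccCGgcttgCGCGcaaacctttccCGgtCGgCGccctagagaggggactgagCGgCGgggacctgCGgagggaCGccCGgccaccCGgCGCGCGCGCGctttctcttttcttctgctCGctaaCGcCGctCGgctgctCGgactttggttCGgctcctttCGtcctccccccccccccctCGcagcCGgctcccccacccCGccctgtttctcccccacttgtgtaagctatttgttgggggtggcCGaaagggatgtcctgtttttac
Dach1 promoter, chr14:98169716-98170015, minus strand, 13 CpGs: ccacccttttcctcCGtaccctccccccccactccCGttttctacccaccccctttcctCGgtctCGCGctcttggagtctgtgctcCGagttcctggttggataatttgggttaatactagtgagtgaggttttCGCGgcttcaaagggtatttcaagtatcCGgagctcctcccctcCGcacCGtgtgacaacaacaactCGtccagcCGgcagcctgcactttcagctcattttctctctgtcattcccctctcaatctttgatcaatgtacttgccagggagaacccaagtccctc

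Of the 8 members, 6 had a promoter peak, against 45.6% of all 21000 protein-coding genes. Among genes of like promoter CpG content (strata given below), the share was higher, from 53% for Dach1 to 72.5% for Six2. Gene body peaks were found in 6 members (32.2% of all genes) and flank peaks in 7 (72.2%). Any peak was found at 7 members, against 77.8% of all genes. Eya4 had body and flank peaks without a promoter peak, Six5 had no body peak, and Dach1 had no peak of any class. Genes differ in size, and larger genes have more room for a peak, so these shares describe the members and were not tested.

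**Figure D1:**
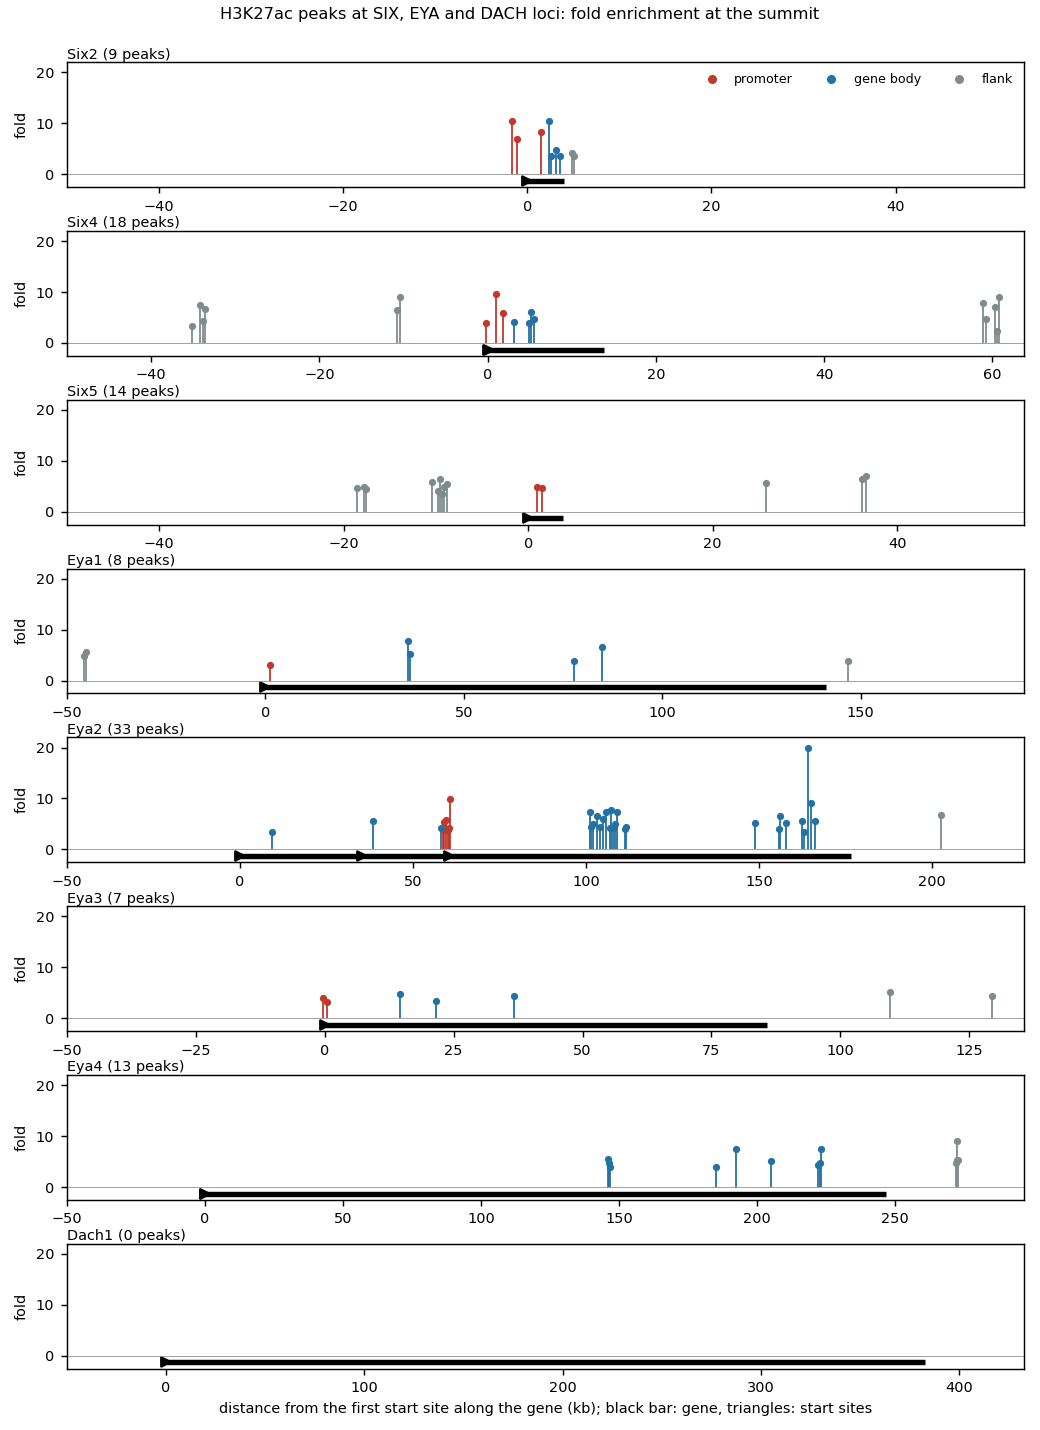
H3K27ac peaks at the 8 member loci. Each stem is a peak at its summit's distance from the first start site along the gene (kb, axes differ between genes). Height is fold enrichment over background and color is the class. Eya2 held 33 peaks with the strongest at 19.9-fold, Six2 peaks sat within 7.22 kb, Eya4 peaks lay far from its start and Dach1 was empty.

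Per length, the loci held 5.50 peaks per 100 kb in 1855 kb of windows, or 7.43 without Dach1, while the genome held 4.49. The median protein-coding gene had 5.61 peaks per 100 kb in the same kind of window (quartiles 0.896 and 12.5), and 4 of 8 members were above it. This count depended on neighboring genes. It was 7 when peaks at promoters of other genes were left out for every gene, with a median of 2.93. With flanks of 50 kb Six4 was the densest with 15.8 peaks per 100 kb (exact Poisson 95% interval 9.37 to 25.0, for counting error only), followed by Six5 with 13.5 (7.37 to 22.6), Eya2 with 11.9 (8.21 to 16.8) and Six2 with 8.66 (3.96 to 16.4). These 4 intervals overlapped each other, and the order depended on the flank: with 10 kb either side Six2 was the densest with 37.5 peaks per 100 kb, before Six5 with 29.4 and Six4 with 20.7. Eya3 had 3.77 (1.52 to 7.77), Eya4 3.75 (2.00 to 6.41) and Eya1 3.32 (1.43 to 6.53), which also overlapped. For Dach1 the count of 0 gave an interval up to 0.764 peaks per 100 kb, below the lower limits of all other members. Peaks of the list lay in groups, with a median of 0.457 kb between neighbors. Intervals that take each peak as independent are therefore too narrow, and differences between loci were not tested. Against genes with windows within 20% of its own length, Eya2 was denser than 77.0% of 1043 genes and Eya4 than 51.7% of 604, whereas Eya1 was denser than 35.5% of 1512.

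**Figure D2:**
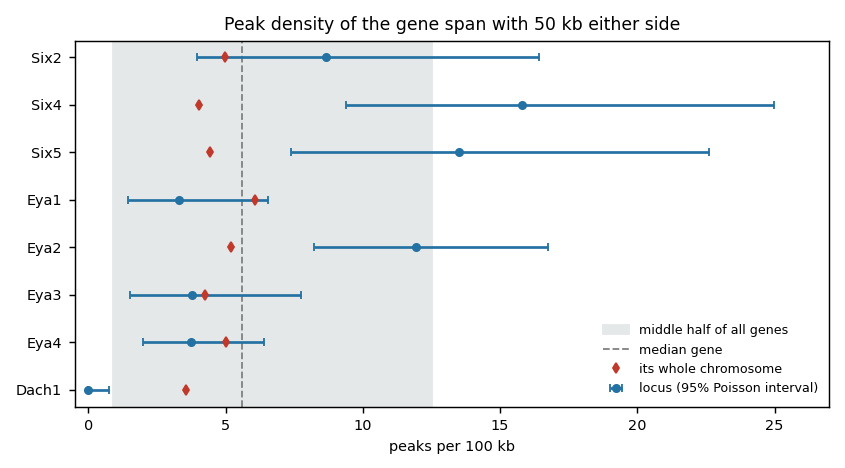
Peaks per 100 kb at each member locus (blue points, 95% Poisson interval), its whole chromosome (red diamonds), the median gene (dashed line) and the range between the quartiles of all protein-coding genes (gray band). Six4, Six5, Eya2 and Six2 lie above the median gene at 5.61. Six4, Six5 and Eya2 have intervals above their chromosomes' densities of 4.05, 4.42 and 5.19. That of Dach1 lies below its chromosome's 3.58, and those of Six2, Eya1, Eya3 and Eya4 include their chromosomes' densities. All flank peaks of Six4 and Six5 were nearer to start sites of other genes. The intervals take peaks as independent although peaks lay in groups, and chromosomes include sequence far from genes, so these differences were not tested.

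Member peaks were of the ordinary size for the list. Their median fold enrichment, which compares fragments at the summit with the background, was 5.02 (quartiles 4.17 and 6.51, range 2.29 to 19.9), beside 5.22 for all peaks. For 46.1% of member peaks and 47.0% of the list the background was the same floor value, so their fold follows the fragment count. The median width was 145.5 bp, beside 163 bp. A median of 13 fragments lay over the summits, as in the whole list, with a range of 7 to 45 at the members. A -log10 q of at least 5 was reached by 49 of the 102 peaks (48.0%), beside 47.9% of the list. Widths above 500 bp were found in 13 member peaks (12.7%), beside 15.1%. Without Eya2 the median fold was 4.79. The median fold was 6.03 at Six4, 5.22 at Eya2, 5.05 at Eya4, 5.00 at Eya1, 4.79 at both Six2 and Six5 and 4.36 at Eya3, where 0 of 7 peaks reached a -log10 q of 5.

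**Figure D3:**
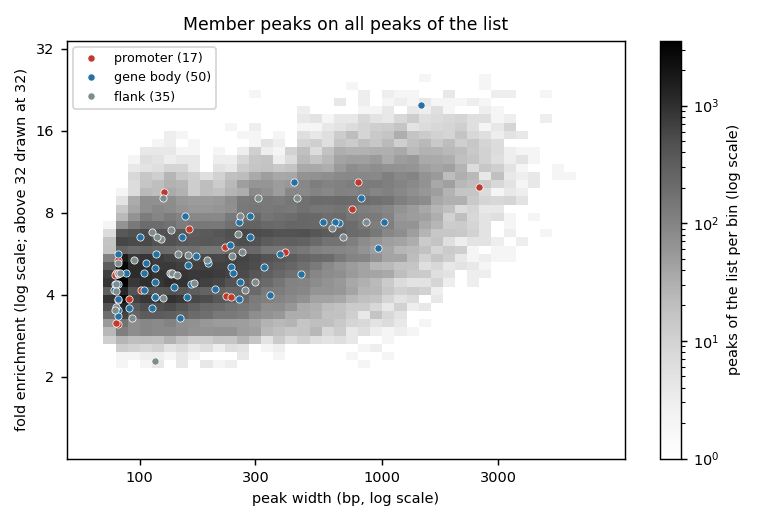
Fold enrichment against width for member peaks (colored by class) over all 122375 peaks (gray bins), both on log scales. Most member peaks lie where the list is dense, around the median of 163 bp and 5.22-fold, and the Eya2 intron peak at 1447 bp and 19.9-fold stands highest among them.

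Promoter peaks differed in strength between the members. The strongest promoter peak reached 10.4-fold at Six2, 9.96-fold at Eya2 and 9.53-fold at Six4, which was above the strongest promoter peak of 82.3%, 78.9% and 75.5% of the 9569 genes with one. At Six5 it was 4.79-fold, at Eya3 3.97-fold and at Eya1 3.12-fold, above those of 10.7%, 4.26% and 0.261% of these genes, whose median was 7.24-fold. With peaks of -log10 q of at least 5 alone, Six2, Eya2 and Six4 were the 3 members with a promoter peak, beside 37.9% of all genes. Fragments over these summits numbered 23 at Six2 (exact Poisson 95% interval 14.6 to 34.5), 22 at Eya2 (13.8 to 33.3), 21 at Six4 (13.0 to 32.1), 10 at Six5 (4.80 to 18.4), 10 at Eya3 (4.80 to 18.4) and 7 at Eya1 (2.81 to 14.4). The intervals of Six5 and Eya3 overlapped those of Six2, Eya2 and Six4, and that of Eya1 overlapped those of Eya2 and Six4.

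The members without a promoter peak, Eya4 and Dach1, differed in promoter CpG content. Within 500 bp of the start sites, Six2 had 121 CpGs, Six5 96, Eya2 84, Eya4 79, Eya3 67, Six4 64, Eya1 49 and Dach1 44. Among genes in the CpG stratum of Eya4, the eighth of 10, 69.9% had a promoter peak, and in the stratum of Dach1, the fifth, 53% had one. In the strata of the members with a promoter peak the share was 65% (Eya1) to 72.5% (Six2). Eya4 thus had more CpGs than Eya3, Six4 and Eya1, which each had a promoter peak, whereas Dach1 had the fewest of all members. Over all genes the share rose from 3.1% in the lowest stratum to 72.5% in the highest. What part CpG content had at the members was not tested.

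**Figure D4:**
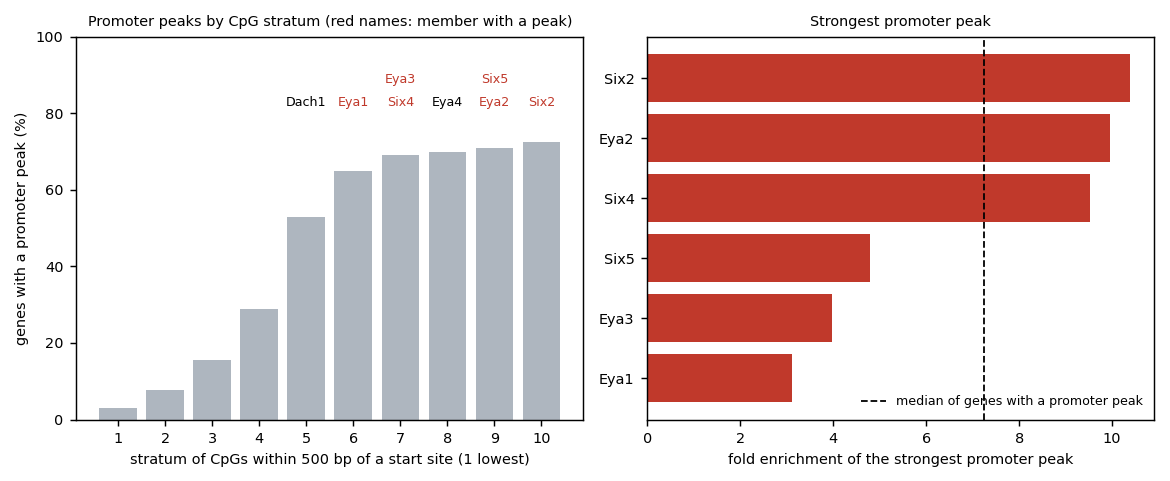
Left, share of genes with a promoter peak (%) in 10 strata of promoter CpG content, with the members named above their stratum (red with a promoter peak, black without). Right, fold enrichment of the strongest promoter peak of the 6 members with one, with the median of all such genes (7.24, dashed). Six2, Eya2 and Six4 lie above that median, Six5, Eya3 and Eya1 below it.

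Start sites themselves lay outside the peaks. Among the 12 RefSeq start sites of the members, 7 had a peak within 2 kb and 0 lay inside a peak. Of all RefSeq start sites 3.45% lay inside a peak, and of those with a peak within 2 kb 8.16% did. Of the 17 promoter summits, 8 were upstream of the nearest member start site and 9 downstream, and 6 were within 500 bp. The nearest was at Eya2, 121 bp downstream. The farthest counted as promoter was at Six4, 1.709 kb downstream, and the first beyond the limit was an Eya2 peak 2.29 kb upstream of an internal start site (4.19-fold), which counted as gene body.

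Six2, a factor known for keeping kidney progenitors undifferentiated, lies on the minus strand at chr17:85684268-85688254. Its 9 peaks formed 1 compact group of 7.22 kb (chr17:85683164-85690386), and no other peak was found in its window. A pair of peaks shared the highest fold of 10.4 with 23 fragments each. One lay 1.683 kb upstream of the start site (chr17:85689590-85690386, 797 bp) and the other in intron 1 (chr17:85685818-85686249, 432 bp), which is the window printed above. Between them lay an intron 1 promoter peak of 8.24-fold, 1.446 kb downstream of the start, and an upstream peak of 6.98-fold, 1.152 kb from the start. The other 3 body peaks and the 2 flank peaks just past the gene's end were weaker, between 3.58- and 4.79-fold. The 2 summits in exon 2 of Six2 were the only gene body summits of any member that fell in an exon, while the other 48 were intronic.

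Six4, which acts with a related homeobox factor in somite myogenesis, lies on the minus strand at chr12:73099609-73113425 and had 3 promoter, 4 body and 11 flank peaks. The strongest promoter peak lay in exon 1, 0.854 kb downstream of a start site (chr12:73112329-73112454, 126 bp, 9.53-fold). The other promoter peaks were 5.98-fold in intron 1 and 3.93-fold 0.238 kb upstream, and the exon 1 and upstream peaks also fall in the RefSeq record of the neighbor Mnat1. Its body peaks lay in introns 1 and 2 and ranged from 3.93- to 6.08-fold. All 11 flank peaks were nearer to a start site of another gene. Of these, 2 were at the promoter of Mnat1, which encodes a subunit of the CDK-activating kinase, with 9.10- and 6.51-fold, 4 more were inside Mnat1 with 3.28- to 7.41-fold, and the remaining 5 lay 58.7 to 60.6 kb downstream with 2.29- to 9.03-fold.

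Six5 lies beside Dmpk, the gene whose repeat expands in myotonic dystrophy, on the plus strand at chr7:19094544-19098345. Its own peaks were 2 narrow promoter peaks in intron 1, 0.922 and 1.494 kb downstream of the start (80 and 79 bp, 4.79- and 4.71-fold, 10 fragments each). All 12 flank peaks were nearer to the start site of another gene and 10 of them were at another promoter. The Dmpk promoter held 6 of these and that of Dmwd, which encodes a WD repeat protein, held 3. One more lay at the promoters of Bhmg1 and Fbxo46. The density at Six5 fell from 13.5 to 3.85 peaks per 100 kb when peaks at promoters of other genes were left out. Over all members 30 of 35 flank peaks were nearer to another gene's start site, and 13 were at another promoter.

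Eya2, a co-activator expressed in developing muscle, lies on the plus strand at chr2:165595028-165771727 and held 33 of the 102 peaks, with 26 of the 50 gene body peaks. All 6 promoter peaks were at the most downstream of its 3 RefSeq start sites, at position 165655298, while the other 2 start sites had 0. Among all genes 3.64% had 6 or more promoter peaks. The strongest of the 6 was the widest member peak (chr2:165655543-165658047, 2505 bp, 9.96-fold) and began just downstream of that start site. The other 5 were 81 to 398 bp wide and 3.84- to 5.76-fold.

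Most Eya2 peaks lay in 2 groups in the introns. In intron 5, 14 peaks lay within 10.9 kb (chr2:165695825-165706755), and 92.0% of the 22564 groups made by joining peaks less than 12.5 kb apart had fewer peaks. Their fold ranged from 3.93 to 7.81. Near the 3′ end, introns 9 and 10 held another 9 peaks within 17.4 kb. One of these was the strongest member peak (intron 10, chr2:165758115-165759561, 1447 bp), with 19.9-fold and 45 fragments (exact Poisson 95% interval 32.8 to 60.2). It ranked 74 in the whole list by fold, and was above the strongest body peak of 99.6% of the 6760 genes with one. Its summit lay 103.8 kb from the nearest Eya2 start site and 99.1 kb from that of Zmynd8, a chromatin reader gene, so the closer start site was not that of Eya2. The next peak, chr2:165759914-165760726, had 9.10-fold. The single flank peak of Eya2 (6.82-fold) was inside Zmynd8.

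Eya1, mutated in branchio-oto-renal syndrome, lies on the minus strand at chr1:14168958-14310199 and held 8 peaks. Its promoter peak in intron 1 was among the weakest of the list (chr1:14309096-14309176, 81 bp, 3.12-fold, 7 fragments), above 1.36% of all peaks. Its 4 gene body peaks were intronic and ranged from 3.85-fold to 7.80-fold, which was the highest of any Eya1 peak. The 3 flank peaks, 3.88- to 5.58-fold, were nearer to Eya1 than to any other start site.

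Eya3, which is expressed in many tissues, lies on the plus strand at chr4:132639046-132724765. Its 7 peaks were weak and narrow, 3.16- to 5.22-fold and 80 to 226 bp. The promoter peaks lay 0.292 kb upstream and 0.486 kb downstream of the start (3.97- and 3.16-fold), and 3 body peaks lay in introns 1, 3 and 7. Both flank peaks were in other genes, in Smpdl3b, a phosphodiesterase gene (5.22-fold), and at the promoter of Rpa2, which encodes a replication protein (4.36-fold).

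Eya4, mutated in a form of hereditary deafness, lies on the minus strand at chr10:23102962-23349943. No peak was found within 2 kb of its start sites, and the nearest summit was 146.1 kb away, in intron 3. Its 9 body peaks ranged from 3.87- to 7.41-fold and all lay in introns 3 to 12. The strongest was in intron 7 (chr10:23156885-23157896, 1012 bp, 24 fragments), with a peak of 7.37-fold in intron 12 (chr10:23126217-23126855). Beyond the 3′ end 4 peaks lay within 0.833 kb, 272.1 to 272.7 kb from the start, and the highest of them had 9.10-fold. These were closer to the start site of Tcf21, another transcription factor gene, at 257 kb. Of the Eya4 peaks 9 of 13 (69.2%) had a -log10 q of at least 5, beside 47.9% of the list.

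Dach1, a co-repressor with roles in limb and eye development, lies on the minus strand at chr14:97786846-98169765 and had no peak in its span of 382.9 kb or in its flanks. Among all genes 22.2% had no peak in their windows, and among the 336 genes with windows within 20% of the same length 66 (19.6%) had none. The peak nearest to the start site of Dach1 was 860.2 kb away. Dach1 lay in a peak-free stretch of 5.138 Mb (chr14:93891477-99029922), where the only other protein-coding genes were Klhl1 and Spertl. Of the 122354 intervals between neighboring peaks, 7 were as long or longer, this one included, and the median was 0.457 kb. Chromosome 14 had 33.5% of its length in peak-free stretches above 1 Mb. Peak names are numbered along the genome, and 0 numbers were missing across the windows of the 8 members, Dach1 included.

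Motif matches were counted within 100 bp of each summit, on both strands, and compared with the same windows of all peaks. The paired-domain core GTCACGC, the kind of site bound by PAX3, was found in 4 of 102 member windows (3.92%, Wilson 95% interval 1.54 to 9.65%), beside 0.539% of all windows. With 200 bp either side 4 windows held it, beside 1.20%. A pair of these were at the Six4 promoter, in the exon 1 peak printed above, where the match lies 16 bp from the summit, and in the upstream peak, 73 bp from the summit. The third was in Eya2 intron 9 (chr2:165751055-165751203, 6.51-fold), 47 bp from the summit and in the same printed window as an AP-1 match 1 bp from the summit. The fourth, in the Eya3 flank at Rpa2, lay outside its peak. Peaks lay in groups, so Wilson intervals that take each window as independent are too narrow, and no motif difference was tested. These are matches of letters, and binding was not measured here.

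The counts of the other motifs are given beside those of the whole list. The E-box CAGCTG, a core bound by myogenic factors, was found in 3 windows (2.94%, 1.01 to 8.29%) beside 10.0% of all, and the loose E-box CANNTG, which includes it, in 58.8% beside 64.9%. The MEF3 site TCAGGTTNC was found once, in Eya2 intron 5 outside the peak itself (0.980% beside 0.899%). With 200 bp either side it was in 5 windows (4.90% beside 1.82%). AP-1 sites TGANTCA were in 6 windows (5.88% beside 8.05%), of which 2 at the Eya4 flank shared 1 site. TEAD sites GGAATG were in 14 (13.7% beside 11.4%), homeodomain sites TAATTA in 4 (3.92% beside 5.62%) and RUNX sites TGTGGT in 21 (20.6% beside 15.9%), 13 of them at Eya2. MEF2 CTATTTATA and ETS CCGGAAGT were in 0 windows (0.234% and 0.286% of all), and KLF GGGGCGGGG in 1 (0.980% beside 0.617%). With 200 bp either side KLF was in 5 windows (4.90% beside 1.73%), and CAGCTG in 13 (12.7% beside 19.1%). Member windows were somewhat richer in G and C, with a median of 48.3% beside 45.8%. Repeats made up most of 8 windows (7.84% beside 9.46%). All were at Eya2, where they were 24.2% of its 33 windows, and the printed Eya2 promoter window includes a run of alternating G and T.

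**Figure D5:**
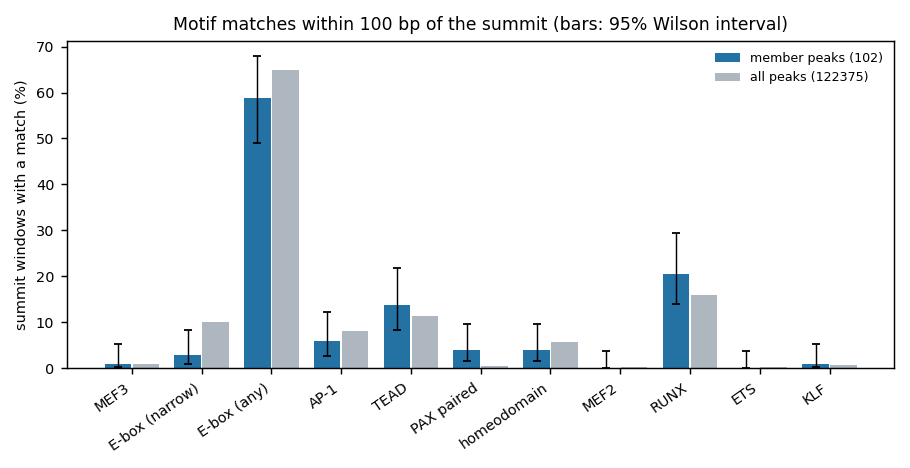
Share of windows of 100 bp either side of the summit with each motif (%) in member peaks (blue, Wilson 95% interval) and in all peaks (gray). E-box (narrow) is CAGCTG and E-box (any) CANNTG. The PAX paired core stands at 3.92% beside 0.539%, and the narrow E-box at 2.94% beside 10.0%. The intervals take windows as independent although peaks lay in groups, and differences were not tested.

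Other genes of the pathway were counted in the same windows. The family members Six3, Six6 and Dach2 had 0 peaks, as did 22.2% of all genes. Of 12 co-factors and partners 9 had a promoter peak, beside 45.6% of all genes. They were led by Pax3, whose locus carries the fusion allele, with 44 peaks and 18.1-fold at the promoter, and by Ski, the co-repressor related to Dach1, with 78 peaks. Tcf12, which pairs with myogenic factors at E-boxes, had 76 peaks. Mef2c, Pax7 and Tle1 were those without a promoter peak. Among 8 genes known as targets in muscle 5 had a promoter peak, beside the same 45.6% of all genes. Myf5 and Myod1 had none at the promoter and 28 and 11 peaks in the flanks, which for Myf5 include the neighboring Myf6, and Myog had 0 peaks.

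The tumor cells were checked at marker genes of the cell types they could hold. Myogenic markers had a promoter peak in 2 of 12 genes (Myf6 and Pax3, whose loci carry alleles of the model), endothelial in 0 of 10, immune in 1 of 8 (Cd68) and fibroblast in 2 of 6 (Col3a1 and Pdgfra), each a smaller share than the 45.6% of all genes. Gene body peaks were found at 2 myogenic, 4 endothelial, 0 immune and 1 fibroblast markers, beside 32.2% of all genes. Any peak was found at 9, 8, 6 and 5 markers of these lists, beside 77.8% of all genes. The defining markers Myod1, Myog, Pecam1, Cdh5 and Ptprc had no promoter peak, while Pecam1 and Cdh5 had 4 and 3 gene body peaks. The part of other cells in the member peaks was not tested.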

How the data were processed

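H3K27ac and IgG CUT&RUN was done on nuclei of sorted live tumor cells. The methods state that the authors aligned reads with bowtie to mm10, removed reads of problematic regions and of an amplified stretch by Col19a1, and ran MACS on each library with IgG as control, while the submitters' processing notes name BWA and MACS2, so which tools made the list is not settled here. The deposited list gives for each peak a fold enrichment, a -log10 of p and of q (the q-value), and a score. The score was the whole part of 10 times the -log10 q. The fold is a ratio of scaled summit fragments to background, solved here with 1 added to both. The background was at a floor of 1.05 for 46.1% of member peaks, beside 47.0% of the list. At those peaks the fold follows the fragment count alone. These deposited values were used as given, and 1 peak list of 1 library allowed no test. Peak names were matched to the sample by the library number in its description. That description calls the library MCP_H3K27ac_1, while the title of the sample says MCP H3K27ac 5. The list states no depth.

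The curated RefSeq transcripts of GRCm38.p6 gave 31601 start sites and 21000 protein-coding genes, and chromosome lengths matched. Fragments over summits were solved as whole numbers from fold and p with a library scale of 0.885, within 0.01 of the -log10 p for 122374 of 122375 peaks, and only 1 number solved both for 97 of 102 member peaks. They are inferred, and without molecular identifiers their intervals cover counting error only. Shares have Wilson and counts exact Poisson 95% intervals. Python 3.11.15, numpy 2.4.6, pandas 2.3.3, scipy 1.17.1 and matplotlib 3.10.9 were used, and the steps were tested on simulated data. The genes named are the members with their strongest peaks (for Eya1 not each by position), neighbors with a start site in a window, and listed pathway and marker genes. Tcf21, Klhl1 and Spertl were named after their values were seen, and some items are not reported here. Members and lists were chosen with earlier results of these data known. Alternatives covered peak strength, overlap, window sizes, peaks at other promoters and motif windows.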

Additional observations from a re-analysis of the deposited data

How the results depend on the processing

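With peaks of -log10 q of at least 5, the 102 member peaks became 49, with 8 promoter, 23 gene body and 18 flank peaks, 3 members with a promoter peak, a median fold of 6.51 and a median width of 257 bp. With the strongest 25% of the list they became 25, with 5, 11 and 9 of each class, 3 members, 7.80-fold and 444 bp, and the background share of genes with a promoter peak was then 29.3%. A promoter of 1 kb left 10 promoter peaks at 5 members. Flanks of 10 kb left 8 flank peaks, and flanks of 100 kb gave 107 flank and 174 member peaks. Leaving out peaks at promoters of other genes left 22 flank peaks and 7 members above the median gene, which then had 2.93 peaks per 100 kb. The changed counts, folds and widths follow from fewer peaks or other windows by construction. The peaks left out differed from gene to gene, because each gene kept those at its own promoter alone. The rise in members above the median gene came with a fall of that median from 5.61 to 2.93. Eya1 and Eya4 stayed at 3.32 and 3.75 peaks per 100 kb, and Eya3 went from 3.77 to 3.23. Requiring the summit in the window, and 3 settings chosen after seeing the data (the whole RefSeq gene record, GENCODE start sites and all loci but Eya2), moved none of the main values beyond these limits. With GENCODE start sites 6 members had a promoter peak. Across all alternatives 40 of 60 main values and 54 of 78 values of single loci or motifs kept within their limits. These tallies include values that a setting could not change, such as promoter counts under other flanks or the total under a promoter of 1 kb. No paired analysis was possible because there is 1 peak list of 1 library. A few fragments decide each peak, so a missing peak is one not detectable at this depth, and differences between loci have no replicate error.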
